A study of Mus musculus with 5 samples.

Results

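The chemokine system of the mouse heart was described at the level of one histone mark, propionylation of lysine 23 of histone H3 (H3K23Pr), measured by chromatin immunoprecipitation and sequencing. The 44 genes were chosen by symbol: every gene assigned to a marked region whose symbol was Ccl, Cxcl, Ccr or Cxcr followed by a digit, or was Cx3cl1, Cx3cr1, Xcl1, Xcr1, Pf4 or Ppbp. They comprised 32 ligands and 12 receptors of 18161 genes in all, and they were assigned to 64 of the 30965 regions in the deposited table. Of these regions, 42 belonged to ligands and 22 to receptors, none to both, and 11 were shared by several members and counted once. The group was proposed with results of these data in view, among them low signal at Ccl2 and Ccl7 after surgery on the BCAA-free diet, so its counts are a description and carry no test.

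Male C57Bl/6J mice, aged 12 weeks, ate either a control diet or one from which leucine, isoleucine and valine, the branched-chain amino acids (BCAA), had been left out. The diets began 4 days before surgery and went on until tissue was taken 2 weeks after it. The operation was transverse aortic constriction (TAC), a narrowing of the aorta that makes the left ventricle pump against a higher pressure, or a sham procedure. The 4 groups were control diet with sham, control diet with TAC, BCAA-free diet with sham and BCAA-free diet with TAC, and each was 1 library made from the pooled chromatin of 3 whole hearts. With 1 library per group there is no replicate check: animals within a pool cannot be told apart, and the intervals below cover counting error only. In such bulk tissue, fewer cells of a type and less mark per cell cannot be told apart. A pooled input library is not analysed here.

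Chemokines are small secreted proteins that guide leukocytes along a gradient by binding receptors coupled to G proteins. Inflammatory chemokines such as Ccl2 (for monocytes, through Ccr2) and Cxcl1, Cxcl2 and Cxcl5 (for neutrophils, through Cxcr2) are induced in injured tissue, in part by NF-kB, whereas homeostatic ones such as Cxcl12, Ccl19 and Ccl21a position cells in resting tissue. Pressure overload is known to bring monocytes and T cells into the heart. Histone propionylation draws on propionyl-CoA, which the breakdown of isoleucine and valine helps to supply, and the mark is found at active promoters and enhancers.

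Promoter sequences are shown for 4 ligands whose start lay inside a marked region and whose signal is described below: the neutrophil chemokines Cxcl1 and Cxcl2, the monocyte chemokine Ccl8 and the homeostatic chemokine Cxcl12. Each window runs from 250 bases before to 50 bases after the start of the gene, 5′ to 3′ on the strand of the gene, from RefSeq on GRCm38.p6. Capitals mark matches on either strand to an NF-kB-like motif (GGGA and TTCC separated by any 2 bases) or to the TATA box letters TATAAA. The windows lie at chr5:90890995-90891294 (Cxcl1), chr5:90903649-90903948 (Cxcl2), chr11:82114935-82115234 (Ccl8) and chr6:117168285-117168584 (Cxcl12), all on the + strand.
Cxcl1: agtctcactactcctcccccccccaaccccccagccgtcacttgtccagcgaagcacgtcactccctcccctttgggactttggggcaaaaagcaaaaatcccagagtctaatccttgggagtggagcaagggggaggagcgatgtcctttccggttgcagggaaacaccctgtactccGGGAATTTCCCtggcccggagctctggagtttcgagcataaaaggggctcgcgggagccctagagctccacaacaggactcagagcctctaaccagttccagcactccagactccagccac
Cxcl2: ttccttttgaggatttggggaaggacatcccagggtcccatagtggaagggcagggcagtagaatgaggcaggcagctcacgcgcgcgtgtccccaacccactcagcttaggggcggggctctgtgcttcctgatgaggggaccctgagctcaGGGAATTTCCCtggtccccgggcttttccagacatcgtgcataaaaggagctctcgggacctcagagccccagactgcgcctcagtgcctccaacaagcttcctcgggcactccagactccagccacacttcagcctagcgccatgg
Ccl8: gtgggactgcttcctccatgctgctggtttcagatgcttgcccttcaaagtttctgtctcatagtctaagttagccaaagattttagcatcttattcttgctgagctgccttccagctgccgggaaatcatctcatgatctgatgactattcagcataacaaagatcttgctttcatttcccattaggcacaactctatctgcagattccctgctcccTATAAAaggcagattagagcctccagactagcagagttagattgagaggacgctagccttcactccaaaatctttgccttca
Cxcl12: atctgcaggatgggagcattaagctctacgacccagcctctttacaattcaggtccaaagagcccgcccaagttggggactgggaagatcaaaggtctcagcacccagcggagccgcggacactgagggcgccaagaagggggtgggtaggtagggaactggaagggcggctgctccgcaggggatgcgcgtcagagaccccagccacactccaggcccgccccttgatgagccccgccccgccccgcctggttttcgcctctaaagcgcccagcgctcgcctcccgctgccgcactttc

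Cxcl1 and Cxcl2 held the same stretch of capitals, which matches the NF-kB-like motif on both strands in an overlapping pair and starts 71 bases upstream of the Cxcl1 start and 97 bases upstream of the Cxcl2 start. Of the 21 ligand genes with a RefSeq window, 4 held the NF-kB-like motif on either strand (Ccl1, Cxcl1, Cxcl2 and Cxcl10), against 1.63% of 27025 genes. None of the 8 receptor genes with a window held it. The AP-1-like motif TGANTCA was in the windows of 5 ligand genes and no receptor gene, against 8.97% of all genes, and TATAAA was in 7 and 3, against 15.7%. A match is a description of the letters only. The Cxcl12 window had 20 CpG dinucleotides and none of these motifs, the Cxcl1 and Cxcl2 windows had 10 and 11, and the Ccl8 window had 2, with TATAAA 32 bases upstream. No window was present for Ccl2, Ccl7, Ccl11 or Cxcl5.

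The marked regions of the chemokine genes were mostly of modest signal and without a CpG island. The median of the mean signal over the 4 libraries (deposited units, averaged over the length of a region) was 8.56 in ligand regions, 8.11 in receptor regions and 9.36 in all regions. A CpG island was counted in 9 of 42 ligand regions and 4 of 22 receptor regions, against 34.4% of all regions. The start of a member lay inside 22 ligand regions and 5 receptor regions. The start of another gene lay inside 10 of the 64, and 31 held no gene start. Many regions were thus assigned to a member whose start lay outside them, some within the gene and others beside it. The strongest regions were given to Cxcl17 (signals 35.8, 39.8, 32.8 and 37.6 in control sham, control TAC, BCAA-free sham and BCAA-free TAC) and to Cxcr5 (37.8, 41.8, 37.3 and 39.3). Both held the starts of other genes, such as Lipe and Bcl9l, and not those of Cxcl17 or Cxcr5. No region was assigned to Ccr2, Cxcr2 or Cxcr3, the main receptors of the inflammatory ligands described here, and these genes are not analysed here.

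Across the 4 libraries, ligand regions were most often lowest after TAC on the BCAA-free diet. The BCAA-free TAC library was the lowest of the 4 in 28 of 42 ligand regions, where 38.4% of all regions had it lowest, and it was the highest in none. The BCAA-free sham library was the highest in 17 ligand regions (40.5%, against 20.3% of all regions) and the control TAC library in 24 (57.1%, against 48.9%). In 14 ligand regions the BCAA-free sham library was highest and the BCAA-free TAC library lowest, an order that 12.3% of all regions had. Of the 42 ligand regions, the authors called 28 as marked in control sham (66.7%, against 76.7% of all regions), 36 in control TAC (85.7%, against 83.1%), 34 in BCAA-free sham (81.0%, against 76.1%) and 23 in BCAA-free TAC (54.8%, against 73.6%). Receptor regions were less uniform: BCAA-free TAC was lowest in 12 of 22 (54.5%) and highest in 3 (13.6%), against 38.4% and 19.8% of all regions. The authors called 19 receptor regions in control sham (86.4%) and 17 in control TAC (77.3%). They called 16 in BCAA-free sham (72.7%) and 12 in BCAA-free TAC (54.5%). The low share of calls in BCAA-free TAC was thus common to ligand and receptor regions. A region entered the table if it was called in any library, so a region called only where it is high had to differ. In 21 ligand regions and 11 receptor regions the call was made in all 4 libraries.

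**Figure D1:**
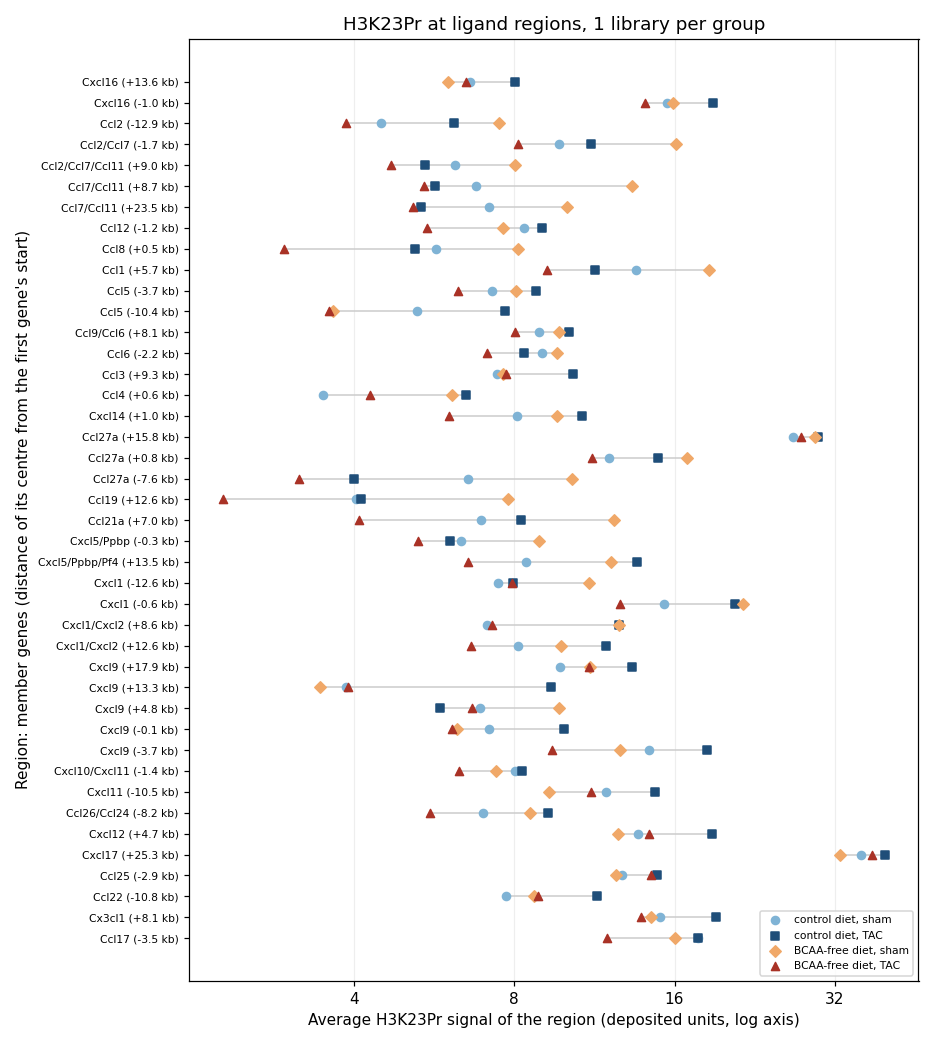
Average H3K23Pr signal (deposited units, log axis) of the 42 ligand regions in each of the 4 libraries; each row is a region, named by its member genes with the distance of its centre from the start of the first gene, and the grey line spans the 4 values. The BCAA-free TAC triangles sit at the left end of 28 rows and at the right end of none.

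After TAC on the control diet, ligand regions carried slightly more mark than after sham. On the scale of log2(signal + 1), where each comparison is the difference between 2 libraries, the median over the ligand regions was 0.24, beside 0.16 over all regions. Above 0 lay 32 of 42 ligand regions (76.2%), against 68.7% of all regions. At least 1.5-fold higher on this scale were 4 of 42 ligand regions (9.52%), against 5.75% of all regions, and at least 1.5-fold lower was 1 (2.38%), against 2.19%. Both shares were near those of all regions. The receptor regions had a median of 0.11, with none higher and 1 lower (4.55%, against 2.19% of all regions).

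The 4 higher ligand regions were assigned to Cxcl9, to Ccl4, to Cxcl1 with Cxcl2, and to Pf4 with its neighbours Cxcl5 and Ppbp, and those of Cxcl9 and of Cxcl1 with Cxcl2 held no member's start. A region 13.3 kb downstream of the Cxcl9 start had signals of 3.87 in control sham, 9.39 in control TAC, 3.46 in BCAA-free sham and 3.90 in BCAA-free TAC, and was 2.43-fold higher in control TAC than in control sham (95% counting interval 1.40 to 4.17). Only the control TAC library stood apart there, and the region was called in that library alone. Ccl4, a chemokine of macrophages and activated lymphocytes, had 3.50, 6.48, 6.11 and 4.28 over its start, a 1.85-fold difference between the control diet libraries (1.23 to 2.86), again in a region called in control TAC alone. The region between Cxcl1 and Cxcl2 was 1.77-fold higher (1.37 to 2.26), and the one over the start of Pf4, which encodes platelet factor 4, was 1.62-fold higher (1.34 to 1.96). The 2 lower regions were one 7.6 kb upstream of Ccl27a, a skin-homing chemokine, 1.64-fold lower (1.06 to 2.55), and one near Cxcr6, the receptor of Cxcl16, 1.63-fold lower (1.19 to 2.26).

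After TAC on the BCAA-free diet, ligand regions carried less mark than after sham on that diet. The median over the ligand regions was -0.42, beside -0.03 over all regions. Below 0 lay 34 of 42 and above it 8 (19.0%), where 46.6% of all regions lay above 0. At least 1.5-fold lower were 15 ligand regions (35.7%), against 9.23% of all regions, and none was at least 1.5-fold higher, against 8.06%. The receptor regions had a median of -0.12, with 1 higher (4.55%, against 8.06% of all regions) and 2 lower (9.09%, against 9.23%). Of 33 ligand regions without a CpG island 42.4% were lower, against 12.8% of all such regions. Low values at Ccl2 and Ccl7 in this comparison were among the results that led to the group, so these shares are no independent sign of a low value in ligand genes at large.

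The 4 lowest ligand regions were small and held few tags. Downstream of Ccl19 and Ccl21a, ligands of Ccr7 that direct lymphocytes and dendritic cells, signals were 4.03, 4.12, 7.80 and 2.27 for Ccl19 and 6.92, 8.25, 12.3 and 4.09 for Ccl21a, in control sham, control TAC, BCAA-free sham and BCAA-free TAC. Both regions were called in the BCAA-free sham library alone, and that library was the high one. BCAA-free TAC was 3.44-fold lower than BCAA-free sham near Ccl19 (1.90 to 6.86) and 3.01-fold lower near Ccl21a (1.30 to 8.71), with about 49 and 22 tags in the higher library. The region 7.6 kb upstream of Ccl27a was 3.26-fold lower (2.13 to 5.21) with signals of 6.56, 4.00, 10.3 and 3.15. Ccl19, Ccl21a and Ccl27a lie in a stretch of chromosome 4 known to hold near-identical gene copies, so reads there could belong to another copy. Ccl8 had 5.70, 5.21, 8.14 and 2.96 over its start, a 2.75-fold difference (1.67 to 4.52), also in a region called in BCAA-free sham alone.

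**Figure D2:**
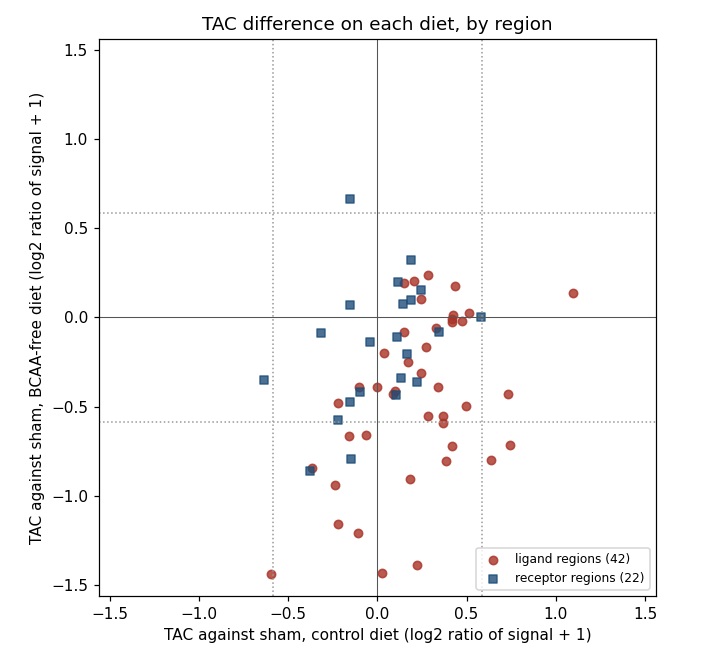
Difference between TAC and sham, as log2 of the ratio of signal + 1, on the control diet (x axis) and on the BCAA-free diet (y axis) for the 42 ligand regions and 22 receptor regions; dotted lines mark a 1.5-fold difference. Of the ligand regions 32 lie to the right of 0 and 34 below 0, with 15 under the lower dotted line and none above the upper one.

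Of the 15 lower ligand regions, 11 lay in 2 gene clusters, of which the first holds the monocyte chemokine genes on chromosome 11. The cluster runs from Ccl2 through Ccl7, Ccl11, Ccl12 and Ccl8 to Ccl1 (chr11:82018400-82178399, mm10), and 8 regions there were assigned to members. Summed over these 8 regions, the signal per length was 7.74 in control sham, 7.08 in control TAC, 10.8 in BCAA-free sham and 5.67 in BCAA-free TAC. The BCAA-free sham library was the highest in 7 of the 8 and the BCAA-free TAC library the lowest in all 8. BCAA-free TAC was 1.91-fold lower than BCAA-free sham over the cluster (1.80 to 2.02), and 7 of the 8 regions were at least 1.5-fold lower. BCAA-free sham was 1.40-fold higher than control sham (1.33 to 1.47), and control TAC was 1.09-fold lower than control sham (1.03 to 1.16).

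Ccl2 itself, the main attractant of monocytes, had its highest value in BCAA-free sham. The region over its start (chr11:82030400-82037399) had signals of 9.71 in control sham, 11.2 in control TAC, 16.1 in BCAA-free sham and 8.14 in BCAA-free TAC, and was called in all 4 libraries. The 2 diets stood apart in sham hearts, 1.66-fold (1.44 to 1.92), and in TAC hearts the BCAA-free library was 1.37-fold lower (1.17 to 1.62). On the control diet the interval of the TAC ratio, 1.15 (0.985 to 1.35), included 1. The region 12.9 kb upstream of Ccl2, which holds no gene start, had 4.49, 6.18, 7.50 and 3.86, and there control TAC was 1.37-fold higher than control sham (1.12 to 1.68).

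Ccl7, a monocyte chemokine, and Ccl11, the eosinophil chemokine eotaxin, shared 3 regions with each other. The region over the Ccl7 start had 6.19, 5.44, 8.01 and 4.70, with BCAA-free TAC 1.71-fold lower than BCAA-free sham (1.47 to 1.99). The region between the genes had 6.78, 5.69, 13.3 and 5.42, and its 1.96-fold difference between BCAA-free and control sham (1.53 to 2.53) was the largest of any member region in that comparison on the log2(signal + 1) scale. In the region between the genes BCAA-free sham was the only high library, and the other 3 lay closer together. The broad region over the Ccl11 start had 7.18, 5.35, 10.04 and 5.16. Ccl12, a monocyte chemokine known from the mouse, was the exception in the cluster: its start region had 8.35, 9.0, 7.63 and 5.49, with control TAC and not BCAA-free sham highest. Beyond it, near Ccl1, a ligand of Ccr8, the signals were 13.6, 11.3, 18.6 and 9.21.

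Neighbouring regions without an assigned gene also had BCAA-free sham as the highest library. A region between Ccl8 and Ccl1 had signals of 8.46, 6.16, 14.2 and 5.51, a second had 6.62, 4.47, 8.76 and 4.47, and the one upstream of the cluster had 7.50, 9.30, 11.4 and 6.92. BCAA-free TAC was the lowest library in the first and the third, and control TAC and BCAA-free TAC were level in the second.

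**Figure D3:**
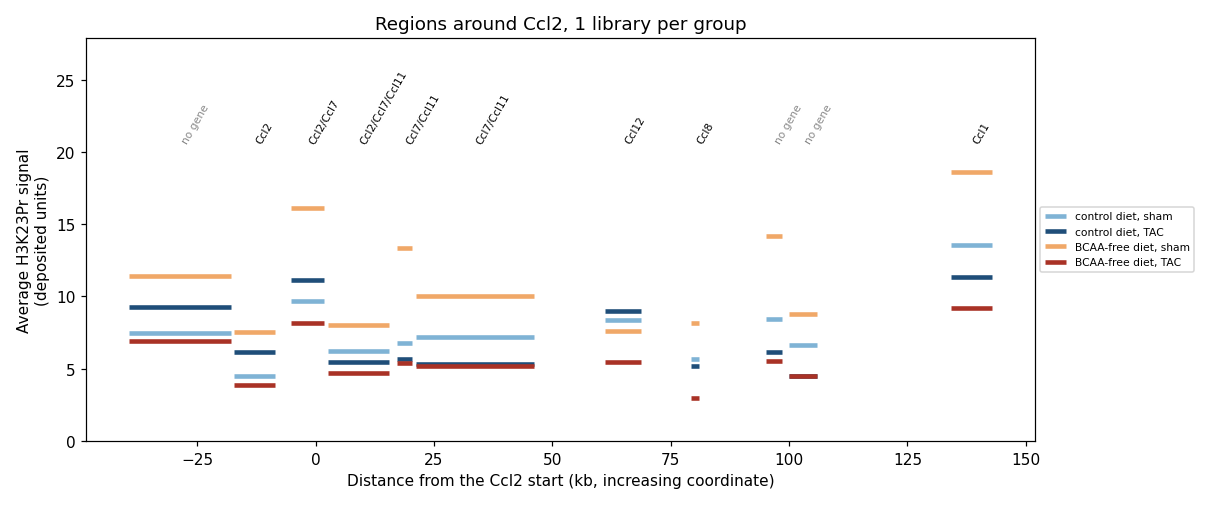
Average H3K23Pr signal (deposited units) of the regions in and beside the Ccl2 cluster, drawn at their distance from the Ccl2 start (kb, increasing coordinate); each bar spans a region and its colour is the library, with assigned genes named above and regions without one marked "no gene". The BCAA-free sham bar is the top one at every region except that of Ccl12.

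The second cluster, on chromosome 5, holds the neutrophil and platelet chemokine genes Cxcl5, Ppbp, Pf4, Cxcl1 and Cxcl2 (chr5:90756200-90905599). Its 6 member regions had a summed signal per length of 8.49 in control sham, 11.2 in control TAC, 12.2 in BCAA-free sham and 7.61 in BCAA-free TAC. Unlike the Ccl2 cluster it was higher with TAC on the control diet, 1.32-fold (1.22 to 1.42), and it was 1.61-fold lower with TAC on the BCAA-free diet (1.48 to 1.74). In this cluster 4 of 6 regions were at least 1.5-fold lower with TAC on the BCAA-free diet. BCAA-free sham was 1.44-fold higher than control sham (1.33 to 1.55), and BCAA-free TAC was 1.47-fold lower than control TAC (1.35 to 1.59). The 3 regions without an assigned gene between Pf4 and Cxcl1 did not have BCAA-free TAC lowest: they had 7.61, 6.75, 11.3 and 8.15, then 3.90, 4.37, 7.78 and 5.06, then 4.44, 2.68, 8.28 and 4.76. BCAA-free sham was the highest library in each, and BCAA-free TAC lay above both control diet libraries.

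Cxcl1, whose promoter window is printed above, had signals over its start of 15.3 in control sham, 20.8 in control TAC, 21.5 in BCAA-free sham and 12.6 in BCAA-free TAC, the highest of the cluster. Control TAC was 1.36-fold above control sham (1.16 to 1.59), and BCAA-free TAC was 1.70-fold below BCAA-free sham (1.44 to 2.01). The 4 libraries thus fell into a high pair, control TAC and BCAA-free sham, and a low pair. The same pairs were seen between Cxcl1 and Cxcl2, with 7.11, 12.6, 12.6 and 7.26, and over Pf4, with 8.40, 13.6, 12.1 and 6.54. Over the Cxcl2 start, where the second printed window lies, signals were 8.13 in control sham, 11.9 in control TAC, 9.78 in BCAA-free sham and 6.63 in BCAA-free TAC. Control TAC was 1.46-fold above control sham there (1.16 to 1.84), and BCAA-free TAC was 1.79-fold below control TAC (1.40 to 2.28). Over the Cxcl5 start the pattern was that of the Ccl2 cluster, with 6.36, 6.05, 8.92 and 5.28: the 2 control diet libraries did not differ beyond counting error, at 1.05-fold lower with TAC (0.837 to 1.32), and BCAA-free TAC was 1.69-fold below BCAA-free sham (1.36 to 2.11).

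**Figure D4:**
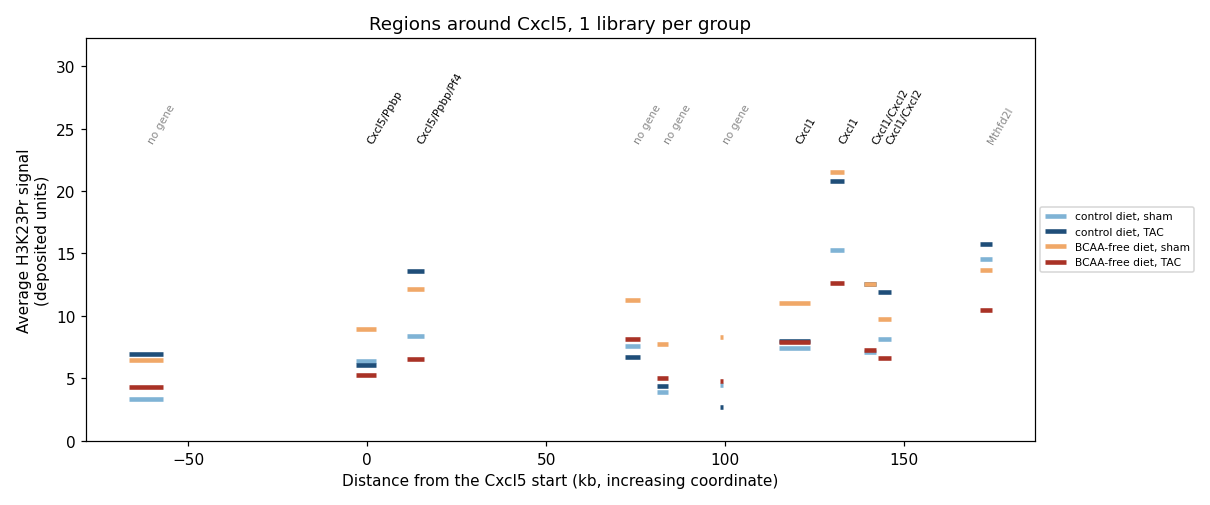
Average H3K23Pr signal (deposited units) of the regions in and beside the Cxcl5 to Cxcl2 cluster, drawn at their distance from the Cxcl5 start (kb, increasing coordinate), with bars, colours and names as for the Ccl2 cluster. At Cxcl1 the control TAC and BCAA-free sham bars stand at 20.8 and 21.5, above 15.3 in control sham and 12.6 in BCAA-free TAC.

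Outside these clusters the difference between TAC and sham on the BCAA-free diet was smaller. The median over the other 28 ligand regions was -0.18, and 4 (14.3%, against 9.23% of all regions) were at least 1.5-fold lower: those near Ccl27a, Ccl19 and Ccl21a on chromosome 4 and the Cxcl14 start, the last with signals of 8.11, 10.7, 9.61 and 6.04. Among ligand regions called in all 4 libraries, 6 of 8 in the 2 clusters and 0 of 13 outside them were lower. Of all regions called in all 4 libraries 4.45% were lower. The clusters were set apart after the values were seen, and they hold Ccl2 and Ccl7, whose low values led to the group. The split is thus a description and carries no test. The control TAC library was the highest in 21 of the 28 regions (75.0%, against 48.9%).

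The genes of the interferon-inducible T cell chemokines Cxcl9, Cxcl10 and Cxcl11, ligands of Cxcr3, behaved in this second way. Summed over their 7 regions (chr5:92307000-92380199), the signal per length was 10.1 in control sham, 12.3 in control TAC, 9.25 in BCAA-free sham and 9.09 in BCAA-free TAC. TAC was 1.22-fold higher on the control diet (1.15 to 1.31), and on the BCAA-free diet the ratio was 1.02-fold lower with an interval of 0.947 to 1.09. Control TAC was the highest library in 6 of the 7. The region over the Cxcl10 start, also assigned to Cxcl11, was flatter, with 8.03, 8.26, 7.38 and 6.29 and a TAC ratio on the control diet of 1.03 (0.872 to 1.21).

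Ccl5, which attracts T cells, and the neighbouring Ccl9, Ccl6, Ccl3 and Ccl4 made up another cluster on chromosome 11. Control TAC was the highest library in 5 of its 6 member regions. A region 3.7 kb upstream of Ccl5 had 7.25, 8.77, 8.05 and 6.28, and none of its ratios between TAC and sham had an interval that left out 1. The region 10.4 kb upstream had 5.26, 7.70, 3.65 and 3.59, with BCAA-free TAC 2.14-fold below control TAC (1.44 to 3.34), in a region called in control TAC alone. No region over the Ccl5 start was listed.

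The 9 ligand regions with a CpG island differed in level, with mean signals from 8.63 at Cxcl14 to 36.5 near Cxcl17. Cxcl12, which retains progenitor cells and lymphocytes through Cxcr4, had 13.7 in control sham, 18.8 in control TAC, 12.5 in BCAA-free sham and 14.3 in BCAA-free TAC, and was higher with TAC on the control diet, 1.38-fold (1.26 to 1.51), and on the BCAA-free diet, 1.14-fold (1.03 to 1.26). It was thus 1 of the 8 ligand regions that lay above 0 on the BCAA-free diet. Cx3cl1, a membrane-bound chemokine of endothelial cells, had 15.0, 19.1, 14.4 and 13.8, and only control TAC stood apart, 1.27-fold above control sham (1.19 to 1.36). Of the 9 regions, that of Cxcl14 (11.1%) was at least 1.5-fold lower with TAC on the BCAA-free diet, against 2.33% of all regions with an island.

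The diet comparison within each surgery gave opposite directions for ligand regions. In sham hearts the BCAA-free library was higher: the median was 0.20 beside -0.01 over all regions, 7 of 42 regions (16.7%) were at least 1.5-fold higher against 2.76% of all regions, and none was at least 1.5-fold lower against 2.62%. Of the 7, 3 lay in the Ccl2 cluster and 1 between Cxcl1 and Cxcl2, and the other 3 were the regions of Ccl4, Ccl19 and Ccl21a. Those of Ccl19 and Ccl21a were called in BCAA-free sham alone, and that of Ccl4 in control TAC alone. Among ligand regions called in all 4 libraries, 1 of 21 (4.76%) was at least 1.5-fold higher in sham hearts, against 0.90% of all such regions. In TAC hearts the BCAA-free library was lower, at a median of -0.39 beside -0.20 over all regions. Of 42 ligand regions 41 lay below 0 and 1 (2.38%) above it, where 29.7% of all regions lay above 0. At least 1.5-fold lower were 14 (33.3%) against 9.42%, and none was at least 1.5-fold higher against 3.82%. The 4 lowest were 2 Cxcl9 regions, the Pf4 region and the one 10.4 kb upstream of Ccl5. The Cxcl9 region 3.7 kb upstream of its start, which holds the start of Art3, had 14.3, 18.4, 12.6 and 9.41, with BCAA-free TAC 1.95-fold below control TAC (1.60 to 2.39). These comparisons share libraries with those of TAC against sham, so the low BCAA-free TAC library enters both. When the TAC difference of the control diet was subtracted from that of the BCAA-free diet, the result was below 0 in 41 of 42 ligand regions, with a median of -0.51, beside -0.20 and 67.2% of regions below 0 over the whole table.

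Receptor genes showed mixed directions, apart from lower values on the BCAA-free diet in TAC hearts, a shift that all regions shared. In sham hearts none of the 22 regions was at least 1.5-fold different between the diets, at a median of -0.05. In TAC hearts 3 were lower on the BCAA-free diet (13.6%, against 9.42% of all regions) and none was higher, against 3.82%. The median there was -0.18, beside -0.20 over all regions. Above 0 lay 5 of 22 (22.7%), against 29.7% of all regions. Cxcr4, the Cxcl12 receptor, had 18.2 in control sham, 20.0 in control TAC, 15.4 in BCAA-free sham and 11.9 in BCAA-free TAC over its start. BCAA-free TAC was the low library, 1.29-fold below BCAA-free sham (1.13 to 1.47) and 1.68-fold below control TAC (1.48 to 1.91). The ligand Cxcl12 was instead higher in BCAA-free TAC than in BCAA-free sham. A region 18.5 kb upstream of the Cxcr4 start had 12.0, 10.7, 12.5 and 8.71. There BCAA-free sham was highest, and control TAC was 1.12-fold below control sham (1.02 to 1.23). Cxcr7, an atypical receptor that scavenges Cxcl12, had 12.9, 15.4, 14.5 and 16.2 over a broad region of chromosome 1, and was higher with TAC on both diets, 1.20-fold (1.14 to 1.26) and 1.12-fold (1.07 to 1.17).

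Receptors of monocytes and macrophages had mostly low signal. Cx3cr1, the receptor of Cx3cl1 on resident macrophages and patrolling monocytes, had 9.01, 8.01, 6.95 and 7.34 over its start. Neither TAC ratio left out 1 there, and BCAA-free sham was 1.30-fold below control sham (1.06 to 1.60). A region within the gene had 6.57, 6.35, 6.64 and 5.95. One 31.8 kb downstream, called in control TAC alone, had 6.05, 7.97, 5.36 and 5.02. Control TAC was 1.32-fold above control sham there (1.05 to 1.66), and BCAA-free TAC was 1.59-fold below control TAC (1.25 to 2.03). Ccr1, a receptor of Ccl3 and Ccl5, had 7.08, 11.1, 6.15 and 6.16 in a region 17.1 kb downstream of its start, with control TAC alone high, 1.57-fold above control sham (1.30 to 1.89). An interval that holds 1 does not show that the libraries were alike.

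Among lymphocyte receptors, Ccr9, the gut-homing receptor of Ccl25, had BCAA-free sham highest in all its 3 regions. They had 6.08, 4.46, 9.10 and 4.56, then 8.40, 7.50, 10.4 and 5.57, then 8.73, 7.34, 10.4 and 6.63. The first 2 were the receptor regions at least 1.5-fold lower with TAC on the BCAA-free diet. They made up 9.09% of the 22 receptor regions, near the 9.23% of all regions. The first of them was called in BCAA-free sham alone. Cxcr6 gave the single higher region, 6.90, 6.10, 4.89 and 8.33, a 1.70-fold difference (1.26 to 2.38) in a region called in BCAA-free TAC alone. Ccr6, the receptor of Ccl20, had 8.90, 9.65, 7.10 and 4.99 in a region 9.2 kb upstream of its start, with BCAA-free TAC 1.94-fold below control TAC (1.59 to 2.38).

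**Figure D5:**
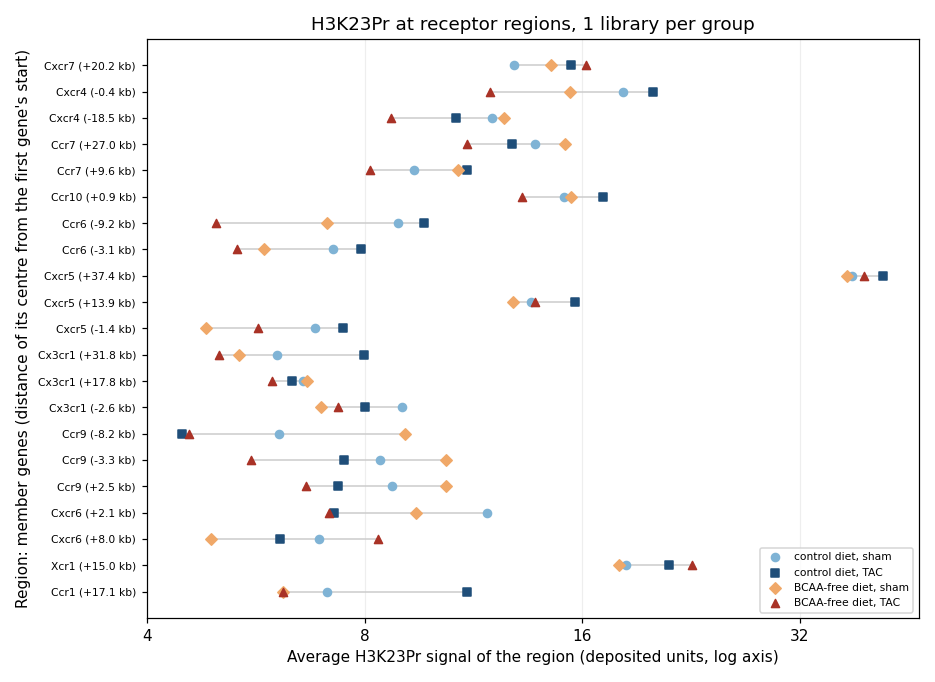
Average H3K23Pr signal (deposited units, log axis) of 21 of the 22 receptor regions in each of the 4 libraries, with rows and symbols as for the ligand regions. BCAA-free TAC is lowest in 12 rows and highest in 3, and the region over the Cxcr4 start spans 11.9 to 20.0.

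The wider pathway was read from lists of genes, each gene represented by its region with the highest mean signal. The median over all genes was 0.26 for TAC on the control diet, -0.04 for TAC on the BCAA-free diet, 0.01 for diet in sham hearts and -0.29 for diet in TAC hearts. With TAC on the BCAA-free diet, 3.75% of all genes were at least 1.5-fold lower and 2.9% higher by that region, and for diet in TAC hearts 9.07% were lower. The inflammatory ligands, 18 of 19 of which had a region (14 regions), had medians of 0.26, -0.42, 0.29 and -0.46 in that order, and 6 of the 14 were at least 1.5-fold lower with TAC on the BCAA-free diet. The homeostatic and other ligands, 13 regions, had 0.22, -0.17, 0.13 and -0.40, with 4 lower. Of 4 atypical receptors with a region, which bind chemokines without coupling to G proteins, 2 were lower: Ackr2, a scavenger of inflammatory CC chemokines, had 18.4, 18.6, 25.1 and 14.8, and Ackr4, a scavenger of Ccl19 and Ccl21, had 9.82, 13.6, 11.5 and 6.66.

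Genes of signalling below the receptors, 23 with a region, had medians of 0.25, -0.09, -0.02 and -0.25 in the same order, near those of all genes. BCAA-free TAC was the lowest library in 13 of the 23, against 42.7% of all genes. With TAC on the BCAA-free diet 15 lay below 0 and 8 above it. Counted by region and not by gene, 46.6% of all regions lay above 0, and 40.0% of those with a CpG island. None of the 23 was at least 1.5-fold lower in that comparison, and 2 were higher. These were Grk3, a kinase that desensitises receptors, with 8.21, 15.4, 9.22 and 15.6, and Ptk2b, a tyrosine kinase, with 14.6, 15.3, 13.6 and 21.5. For diet in TAC hearts 4 of 23 were lower, against 9.07% of all genes: Gng2, Rac2, Dock2 and Vav1, and none was higher. The list of NF-kB subunits, regulators and inducing cytokines had 19 of 20 regions above 0 with TAC on the control diet. With TAC on the BCAA-free diet 5 of 20 lay above 0, and the medians were 0.29 and -0.16. Above 0 lay 68.7% and 46.6% of all regions, and 92.1% and 40.0% of all regions with a CpG island. The count on the control diet was thus near the share of regions with an island. Nfkb2, which encodes a subunit of NF-kB, had 14.7, 27.1, 21.5 and 16.2, the same high and low pairs of libraries as Cxcl1. Il1r1, the interleukin 1 receptor, was the list's only region at least 1.5-fold lower with TAC on the BCAA-free diet.

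Markers of cell types that make chemokines in the heart were read beside these results. Fibroblast markers, all 14 with a region, had a median of -0.65 with TAC on the BCAA-free diet, 8 at least 1.5-fold lower (against 3.75% of all genes) and none above 0, and of 0.34 between the diets in sham hearts, with 13 above 0. Their summed signal was 175.6 in control sham, 180.7 in control TAC, 228.5 in BCAA-free sham and 149.0 in BCAA-free TAC, with the same highest and lowest library as the Ccl2 cluster. Tcf21, a transcription factor of cardiac fibroblasts, had 15.7, 14.1, 21.2 and 10.7. Macrophage and monocyte markers, 12 regions, summed to 163.1, 183.7, 161.8 and 135.3, with 1 of 12 at least 1.5-fold lower with TAC on the BCAA-free diet. Of 10 neutrophil markers only 4 had a region, with sums of 46.9, 51.0, 51.5 and 44.4, and the others, S100a8, S100a9, Ly6g, Mpo, Retnlg and Camp, are not analysed here. Lymphocyte markers, 5 of 10 with a region, summed to 70.6, 83.7, 67.9 and 70.4. Endothelial and cardiomyocyte markers, all 14 of each with a region, went the other way with TAC on the BCAA-free diet, at medians of 0.26 and 0.51. At least 1.5-fold higher were 5 of 14 endothelial and 5 of 14 cardiomyocyte markers, against 2.9% of all genes. Above 0 lay 10 endothelial and all 14 cardiomyocyte markers. Counted by region and not by gene, 46.6% of all regions lay above 0 with TAC on the BCAA-free diet. Between the diets in sham hearts 49.1% of all regions did. The part of these cell types in the values of the chemokine genes was not tested.

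The sequencing depth of the libraries is unknown. Approximate tags, summed over all marked regions from the deposited signal, came to about 16940649 in control sham, 18877108 in control TAC, 16960160 in BCAA-free sham and 17097868 in BCAA-free TAC, and the median region held between 239 and 268 tags. The signal of control TAC was the highest of the 4 in 48.9% of all regions, so values relative to that library carry a shift of 0.16 (TAC on the control diet) and -0.20 (diet in TAC hearts) in the median of all regions on the log2 scale.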

How the data were processed

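H3K23Pr was measured in 4 libraries, 1 per combination of diet and surgery, each a pool of 3 hearts. Per the submitters' processing notes, BWA, MACS2 and mm10 were used, with no role or version given. The authors deposited 1 table of 30965 merged regions with, per the file headers, an average and a peak signal (coverage) per library, flags for the libraries in which a region was called, and assigned genes with distances. How the signal was scaled is not given in the sources used here. The authors' deposited log2 ratios equalled those recomputed from the average signal with a largest deviation of 8.88e-16 and served no other purpose. The treatment field of 3 samples goes against their titles, and the titles were followed.

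Each comparison was log2 of the ratio of average signal + 1, and 1.5-fold on that scale was the threshold. For named regions the plain ratio is given with an exact 95% Clopper-Pearson interval from approximate tags (average signal times length, divided by 224, a divisor found from the deposited maximum tags). Cluster values sum those tags. A gene's start was taken as inside a region when its distance from the centre did not reach past either end. The members and lists were chosen with earlier results of these data known. Named regions are those of fixed genes (Ccl2, Ccl7, Cxcl2, Cxcl5, Cxcl10 and the pairs Cxcl12 and Cxcr4, Cx3cl1 and Cx3cr1, and Ccl5) and the 4 highest and 4 lowest past 1.5-fold in each comparison; the others named, among them Cxcl1, Ccl12, Ccl1, Cxcr7, Ccr1, Ccr6 and Ccr9, were chosen after their values were seen. The values of 1 receptor gene enter the counts and are not reported here. A region was found for 144 of 168 list symbols, and RefSeq synonyms supplied 6 of these. The calculation was checked on simulated data. Python 3.11.15, pandas 2.3.3, numpy 2.4.6, scipy 1.17.1 and matplotlib 3.10.9 were used.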

Additional observations from a re-analysis of the deposited data

Results flagged for a closer look

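At 12 of the 64 regions TAC and sham differed in opposite directions on the 2 diets, with the counting interval of both ratios leaving out 1: control TAC was above control sham and BCAA-free TAC below BCAA-free sham in each. The difference between the diets was not tested, since each group was 1 library. Of 42 ligand regions 10 did so, and of 22 receptor regions 2, against 7.34% of all regions in that direction and 9.52% in either. With the TAC difference of the control diet subtracted from that of the BCAA-free diet, in log2, the result was -1.46 between Cxcl1 and Cxcl2, -1.44 over the Pf4 start, -1.14 over the Cxcl1 start and -0.996 over the Cxcl2 start, which all lie in the chromosome 5 cluster. It was -1.19 in the region 12.9 kb upstream of Ccl2, -0.96 over Cxcl14, -0.92 near Ccl26 and over the start of Ccl24, and -0.73 upstream of Cxcl9. The smallest such differences among ligands were -0.44 at Cxcl16 and -0.42 at Ccl9 and Ccl6. The Cxcl16 region also holds the starts of Med11 and Zmynd15. The region of Ccl9 and Ccl6 holds the starts of Ccl9 and E230016K23Rik and not that of Ccl6. The receptor regions were those of Ccr7 (-0.59), the receptor of Ccl19 and Ccl21, and of Ccr10 (-0.38), the receptor of Ccl27, the latter in a region that also holds the starts of 3 other genes.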

How the results depend on the processing

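Signs of the ligand medians stayed as reported under every alternative run, and the sizes and counts depended on the setting; the cause was not tested. In the order TAC on the control diet, TAC on the BCAA-free diet, diet in sham hearts and diet in TAC hearts, the medians were 0.24, -0.42, 0.20 and -0.39.

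With 5 in place of 1 added to the signal, 1 ligand region was higher and 0 lower (TAC, control diet), 8 were lower (TAC, BCAA-free), 1 was higher (diet, sham) and 3 were lower (diet, TAC), where the median was -0.30; no receptor region passed (0 in each). With nothing added, 1 receptor region was higher with TAC on the control diet. At a threshold of 2-fold, 1 ligand region was higher and 0 lower, 5 were lower, 0 were higher and 1 was lower in that order of comparisons, and 0 receptor regions passed.

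With the peak in place of the average signal, 10 ligand regions were higher (TAC, control diet), 1 was higher and 18 were lower (TAC, BCAA-free), and 12 were higher and 2 lower (diet, sham). Receptor regions then had 1 higher and 2 lower, 0 higher and 5 lower, 1 lower, and 11 lower at a median of -0.57. Centred on the median of all regions, the ligand medians were 0.089 (TAC, control diet) and -0.19 (diet, TAC), with 2 higher and 5 lower, and the receptor median of diet in TAC hearts turned from -0.18 to 0.016, with 1 higher and 1 lower. Other receptor medians lay near 0 and could change sign by less than their interval: that of TAC on the control diet was -0.05 when centred.

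Without the lower quartile of mean signal, 31 ligand regions were left, with 2 higher and 0 lower, 8 lower, and 4 higher in the first 3 comparisons, and 15 receptor regions, with 0 higher and 1 lower on the BCAA-free diet. With 1 region per gene, 0 ligand regions were lower with TAC on the control diet and 0 receptor regions passed with TAC on the BCAA-free diet.

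Alternatives chosen after seeing the data were these. Only regions with a member's start (22 ligand) gave 2 higher and 0 lower, 8 lower, 2 higher and 8 lower, and receptors (5) gave 0, 0, 0 and 1 lower. Only regions called in all 4 libraries (21 ligand) gave 1 higher and 0 lower, 6 lower, 1 higher and 4 lower, and receptors (11) 0 with TAC on either diet. Without the Ccl2 and Cxcl5 clusters (28 ligand), 2 were higher, 4 were lower at a median of -0.18, 3 were higher and 8 were lower. Leaving out regions with another gene's start moved no ligand or receptor count by over 1.5 times. Of 464 values of single regions under the alternatives, 55 moved past their counting interval and 0 changed sign past it. Most of the 55 came from the peak signal, with which 43 moved and 73 did not. Centring moved 9 and adding 5 moved 3, and with nothing added all 116 stayed. No paired analysis was possible because each group had 1 library, and leaving out a replicate was likewise not possible.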
